A study of Homo sapiens with 16 samples.

Results

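The genes examined here were the 54 members of a standard list of G2/M phase markers, the G2/M list distributed with Seurat 5.3.0, which names transcripts that accumulate as a cell prepares for and passes through mitosis. Membership came from that list and used no measured value, but the list was chosen for description with earlier results of these data known. All 54 were found among the 57773 genes of the count table, and all 54 were among the 20175 genes with at least 60 counts in total that were tested. For description they were sorted by role into mitotic entry (9 genes), chromosome structure and nuclear envelope (12), centromere and kinetochore (6), the chromosomal passenger complex (3), the spindle checkpoint and anaphase-promoting complex (4), spindle and microtubules (14) and cytokinesis (5), and PIMREG was left unassigned.

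The libraries came from A498, 769-P, 786-O and CAKI-2, established human cell lines used as models of clear cell renal cell carcinoma (ccRCC). All cells, controls included, were infected with a lentivirus that carries Cas9 and a guide RNA, and they were used as mixed populations and not as clones. Each line had 1 control library (sgCtrl) and 2 libraries with guides against KDM5C, a histone H3 lysine 4 demethylase encoded on the X chromosome (sgKDM5C, guides 4 and 5). In 786-O and CAKI-2 another 2 libraries had guides against KDM5D, its homologue on the Y chromosome (sgKDM5D, guides 2 and 4), so that 16 libraries formed 10 groups. The paper describes puromycin selection for the sgCtrl and sgKDM5C cells and names no selection drug for the sgKDM5D cells. The 2 guides against a gene were its replicates, no control had a replicate, and the p-values below measure the spread between guide libraries.

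Mitosis is driven by cyclin B bound to the kinase CDK1. Once it is active, condensin and topoisomerase II compact the chromosomes, the nuclear envelope opens, kinetochores attach to the spindle, a checkpoint holds the anaphase-promoting complex until all are attached, and the cleavage furrow then separates the daughter cells. Many of the genes for these steps share a promoter architecture, in which a cell cycle genes homology region (CHR) is bound by the MuvB complex, as part of the repressive DREAM complex in resting cells and together with MYBL2 and FOXM1 in G2. A bulk level of such genes follows the share of cells in G2 and M, and fewer cycling cells cannot be told apart here from less RNA of these genes per cell.

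Depth ran from 23398449 to 41617439 counts per library, and guides 4 and 5 differed well beyond sampling noise in all 4 lines, with a chi-square per gene between 19.8 in A498 and 80.1 in 786-O. KDM5C RNA was at 198 CPM, counts scaled to a common library size, in the A498 control. It was at 111 and 114 CPM with guides 4 and 5, which is 55.9% and 57.3% of the control. With guides 4 and 5, 769-P retained 35.1% and 49.3%, 786-O retained 26.2% and 47.4%, and CAKI-2 retained 47% and 56.1%, so KDM5C was below the control in all 8 sgKDM5C libraries. In the sgKDM5D libraries KDM5C RNA lay between 91.5% and 106% of the control. The renal marker PAX8 was present in all libraries, at 145 to 968 CPM, whereas CA9 was above 1 CPM only in A498. The summed level of 11 markers of blood, endothelial, liver, lung, pancreatic and glial cells was 8.45 to 11.8 CPM in A498, most of it from GFAP, and 0.683 to 2.4 CPM in the other lines.

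The G2/M genes were far lower in A498 than in the other lines. Summed over the 54 genes, the control libraries held 12409 CPM in 786-O, 8405 CPM in 769-P, 3981 CPM in CAKI-2 and 1768 CPM in A498. Per kilobase of exon, the median gene stood at 31 CPM in the 786-O control, 21.2 in 769-P, 11.4 in CAKI-2 and 3.49 in A498. Of the 54 genes, 50 had their lowest control level in A498, 43 their highest in 786-O, and 39 followed the order 786-O, 769-P, CAKI-2, A498. All 3 A498 libraries lay below all 13 others for 44 of the 54 genes, against 15.9% of all genes tested, and all 5 libraries of 786-O lay above all 11 others for 33, against 8.67%. These gaps are between lines with 1 control each, and the order of the controls carries no error of its own.

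The gap between the lines was not the same for all genes. The ratio of the 786-O to the A498 control had a median of 10.2 and was widest for MKI67, which encodes the chromosome surface protein Ki-67, at 63.1. HMMR, a spindle pole protein, followed at 34.6 and the checkpoint kinase TTK at 27.8. The ratio was smallest for the microtubule-associated protein JPT1, at 1.81, for the midbody linker GAS2L3, at 1.82, and for CDCA2, which targets a phosphatase to chromatin, at 1.92. CENPA, HJURP, CDCA2 and JPT1 were the 4 genes whose lowest control was not A498. TUBB4B, a beta-tubulin, was the highest of the set per kilobase in every control, from 184 in A498 to 830 in 786-O, and the ubiquitin ligase G2E3 the lowest, from 0.279 in A498 to 1.38 in 786-O. In the A498 control TTK had 32 counts, the fewest of any member in any control, so single-gene values in A498 carry more counting error than in the other lines.

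With sgKDM5C in A498, the G2/M genes lay above the control. Against sgCtrl, 34 of the 54 genes were higher at an unadjusted p under 0.05 (edgeR quasi-likelihood F-test) and 0 were lower, beside 3.54% of all genes tested that were higher and 2.01% that were lower. The log2 fold change was above 0 for 51 genes, beside 10584 of all 20175 genes tested. Its median was 0.68 over the 54 and 0.02 over all genes tested. No gene of the set passed an adjusted p under 0.05, which 0.00496% of all genes did, a single gene, BST2. The smallest adjusted p of the set was 0.317 for CKAP2L, so no member taken alone passed the correction over all genes. Past a log2 fold change of 1 and an unadjusted p under 0.05 were 8 genes (CKAP2L, TTK, HMMR, DLGAP5, MKI67, CENPE, NDC80 and NEK2), beside 1.02% of all genes tested.

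The adjusted result depended on the fit. At an adjusted p under 0.05, DESeq2 called 9 of the 54 genes and 38 of all 20175. A fit of the 3 A498 libraries alone called 24 of the 54 and 348 of all 15127, and edgeR with no filter on low counts called 3 of the 54 and 33 of all 40196, while the count at an unadjusted p stayed between 33 and 37 in these and the other fits of all libraries. With guide 4 alone the median log2 ratio of the 54 genes to the control was 0.77, and with guide 5 alone it was 0.49. All values in A498 refer to 1 control library, and a peculiarity of that library cannot be told apart from an effect of the guides.

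**Figure D1:**
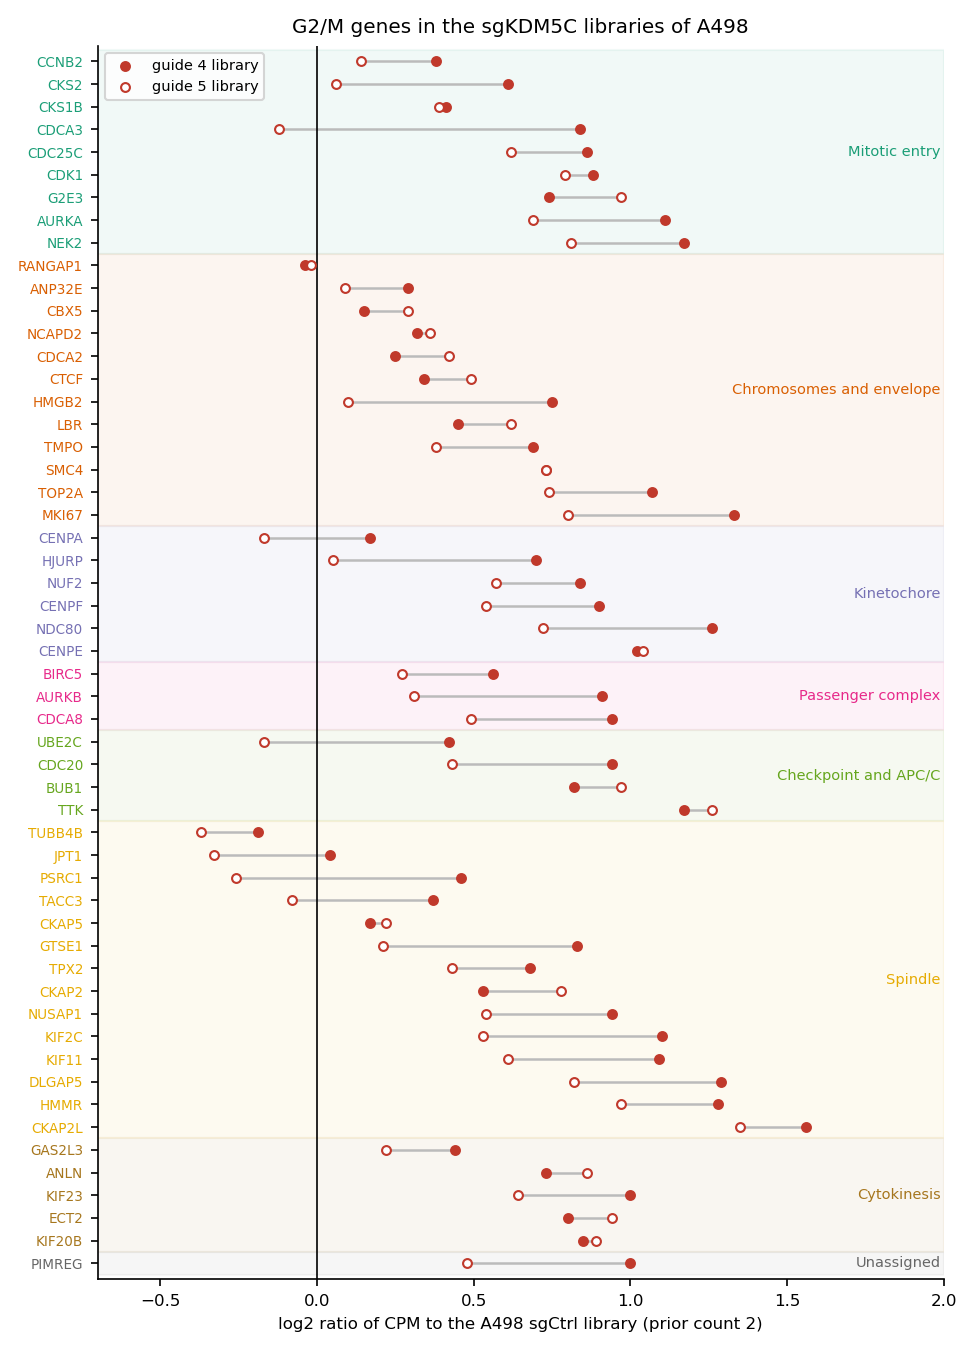
Log2 ratio of each G2/M gene in the 2 sgKDM5C libraries of A498 to the A498 sgCtrl library (CPM with a prior count of 2), filled points for guide 4 and open points for guide 5, grouped by mitotic step. Both points lie to the right of 0 for 46 of the 54 genes, and guide 4 lies to the right of guide 5 for 39.

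All steps of mitosis had members among the 34. There were 5 of 9 genes of mitotic entry (median log2 fold change over all 9 of 0.77), 6 of 12 of chromosome structure and nuclear envelope (0.44), 4 of 6 of the centromere and kinetochore (0.73), 2 of 3 of the passenger complex (0.64), 3 of 4 of the checkpoint and anaphase-promoting complex (0.80), 9 of 14 of the spindle (0.61), 4 of 5 of cytokinesis (0.84) and PIMREG. The ranges of the steps overlapped, and differences between steps were not tested. The lowest values were those of TUBB4B (-0.28), JPT1 (-0.14), RANGAP1 (-0.03) and CENPA (0.01).

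Among the genes of mitotic entry, NEK2, a kinase that splits the centrosome linker (chr1:211831999-211848972, GRCh37), had the smallest p. Its A498 control value was 5.02 CPM, against 11.4 with guide 4 and 8.83 with guide 5, a log2 fold change of 1.01 (SE 0.226, adjusted p = 0.479). In the other lines, always in the order sgCtrl, guide 4 and guide 5, 769-P held 54.6, 63.5 and 53.2 CPM, 786-O held 63.3, 70 and 63.3 CPM, and CAKI-2 held 14.8, 19.5 and 16.9 CPM. The sgKDM5D libraries held 62.1 and 63 CPM in 786-O and 15.4 and 14.5 CPM in CAKI-2. AURKA, the centrosomal Aurora kinase and the most abundant gene of the step by mean CPM (chr20:54944445-54967393), went from 11.7 CPM in the A498 control to 25.3 and 18.9, a log2 fold change of 0.92 (SE 0.221, adjusted p = 0.525). Elsewhere AURKA was at 136, 121 and 116 CPM in 769-P, 222, 187 and 230 in 786-O with 250 and 206 for sgKDM5D, and 69.2, 73.1 and 65.5 in CAKI-2 with 62.7 and 68.1. Both thus lay above the control with both guides in A498, while in 786-O at least 1 guide did not.

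CDK1 itself, the catalytic subunit, was at 10.9 CPM in the A498 control and at 20 and 18.9 CPM with the guides (log2 fold change 0.84). The other members of the step were its activating phosphatase CDC25C at 0.77 and its small binding subunit CKS1B at 0.40, which passed an unadjusted p under 0.05, and G2E3 (0.87), CDCA3 (0.44), CKS2 (0.36) and the B-type cyclin CCNB2 (0.26), which did not. CDC25C shares exon bases with FAM53C on the opposite strand, a gene with more counts, and whether the counting used strand is not given in the sources used here. For CDCA3, an adaptor in the degradation of the CDK1 inhibitor WEE1, guide 4 stood at 15.3 CPM and guide 5 at 7.87, on either side of the control at 8.55.

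In the step of chromosome structure and nuclear envelope, MKI67 (chr10:129894923-129924687) had both the highest mean level and the smallest p. Its A498 control value was 15.7 CPM and those with guides 4 and 5 were 39.4 and 27.3, a log2 fold change of 1.09 (SE 0.244, adjusted p = 0.479). In 769-P it was at 441, 385 and 460 CPM, in 786-O at 989, 754 and 977 with 980 and 949 for sgKDM5D, and in CAKI-2 at 169, 189 and 186 with 157 and 188. Even with sgKDM5C, the A498 values stayed below every library of the other lines. TOP2A, which untangles sister DNA, followed the same course in A498, with 34.3 CPM in the control and 72 and 57.3 with the guides (0.92), as did the condensin ATPase SMC4, with 11.2, 18.7 and 18.6 CPM (0.73).

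The inner nuclear membrane proteins TMPO and LBR both had a log2 fold change of 0.54 in A498 and passed an unadjusted p under 0.05, as did the insulator protein CTCF at 0.42. The others did not: the chromatin protein HMGB2 (0.46), condensin I subunit NCAPD2 (0.34), CDCA2 (0.34), heterochromatin protein CBX5 (0.23), histone chaperone ANP32E (0.20) and RANGAP1 (-0.03). HMGB2 was at 56.4 CPM with guide 4 and 36.1 with guide 5, both above the control at 33.6. NCAPD2 and SMC4 share exon bases with neighbours on the opposite strand that hold more than 10% of their own counts.

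At the centromere and kinetochore, CENPF (chr1:214776528-214837917) was again both the most abundant gene and the one with the smallest p. Its A498 control value was 34.1 CPM and those with guides 4 and 5 were 63.7 and 49.6, a log2 fold change of 0.73 (SE 0.193, adjusted p = 0.703). In 769-P it was at 396, 405 and 363 CPM, in 786-O at 463, 444 and 415 with 457 and 412 for sgKDM5D, and in CAKI-2 at 131, 151 and 136 with 119 and 138. The kinesin CENPE (1.04), the microtubule-binding NDC80 (1.03) and its partner NUF2 (0.72) also passed an unadjusted p under 0.05. The centromere pair did not: CENPA, the centromeric histone, had a log2 fold change of 0.01 and its chaperone HJURP of 0.41. CENPA shares exon bases on the same strand with SLC35F6, a gene with more counts, so its value is uncertain.

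Of the passenger complex, borealin (CDCA8, chr1:38158153-38175391) had both the highest level and the smallest p, with 8.77 CPM in the A498 control and 16.9 and 12.4 with the guides, a log2 fold change of 0.74 (SE 0.21, adjusted p = 0.777). It was at 115, 97.1 and 104 CPM in 769-P, at 199, 180 and 197 in 786-O with 217 and 186 for sgKDM5D, and at 36.8, 44.7 and 41.3 in CAKI-2 with 39.7 and 38.2. Both guides lay above the control in A498 and CAKI-2 and both below it in 769-P and 786-O, in 786-O by little with guide 5. Outside A498 the change of CDCA8 did not pass an unadjusted p under 0.05 in any line. Its kinase AURKB had a log2 fold change of 0.64 and also passed an unadjusted p under 0.05, and survivin, BIRC5, had one of 0.42 and did not.

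BUB1, a kinase of the spindle checkpoint (chr2:111395105-111435640), was at 8.72 CPM in the A498 control and at 15.4 and 17.2 with guides 4 and 5, a log2 fold change of 0.90 (SE 0.205, adjusted p = 0.491). It was at 121, 131 and 105 CPM in 769-P, at 181, 185 and 177 in 786-O with 219 and 188 for sgKDM5D, and at 82.6, 106 and 89.4 in CAKI-2 with 74.8 and 78.9. CDC20, the activator of the anaphase-promoting complex and the most abundant gene of this step (chr1:43824652-43828874), was at 23 CPM in the A498 control and at 44.1 and 30.9 with the guides, a log2 fold change of 0.71 (SE 0.223, adjusted p = 0.828). It was at 359, 310 and 317 CPM in 769-P, at 562, 449 and 588 in 786-O with 569 and 524 for sgKDM5D, and at 96.5, 112 and 102 in CAKI-2 with 111 and 106. TTK had the second largest change of the whole set, 1.25 with an SE of 0.482, from 1.36 CPM to 3.15 and 3.35. UBE2C, the ubiquitin-conjugating enzyme of the same complex, had guide 4 at 106 CPM and guide 5 at 69.8 on either side of a control of 78.8 (0.15).

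CKAP2L, a spindle microtubule protein (chr2:113493926-113522241), had the largest change and the smallest p of all 54 genes. Its level was 2.94 CPM in the A498 control, 8.78 with guide 4 and 7.61 with guide 5, a 2.79-fold difference (log2 1.48, SE 0.278, adjusted p = 0.317). It was at 26.4, 33.4 and 23.6 CPM in 769-P, at 64.7, 69.4 and 65.3 in 786-O with 73.6 and 68.9 for sgKDM5D, and at 21.2, 31.1 and 25.8 in CAKI-2 with 18.6 and 23. In CAKI-2 both sgKDM5C values thus lay above the control and above both sgKDM5D values. TUBB4B (chr9:140135739-140138159), the most abundant gene of the step, took the other direction in A498, with 374 CPM in the control and 328 and 290 with the guides (log2 fold change -0.28, SE 0.198, adjusted p = 0.907). It was at 902, 886 and 837 CPM in 769-P, at 1690, 1282 and 1901 in 786-O with 1630 and 1543 for sgKDM5D, and at 385, 406 and 406 in CAKI-2 with 439 and 423.

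Of the other spindle genes, HMMR (1.15), DLGAP5 (1.10), the pole-separating kinesin KIF11 (0.87), the depolymerising kinesin KIF2C (0.85), NUSAP1 (0.76), CKAP2 (0.66), the AURKA activator TPX2 (0.56) and GTSE1 (0.56) passed an unadjusted p under 0.05 in A498. The microtubule polymerase CKAP5 (0.20), TACC3 (0.16), PSRC1 (0.15) and JPT1 (-0.14) did not. For TACC3, PSRC1 and JPT1 the guides fell on either side of the control. NUSAP1 and JPT1 share exon bases on the same strand with OIP5-AS1 and SUMO2, and TACC3 shares them with TMEM129 on the opposite strand, so part of their counts may belong to these neighbours.

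In cytokinesis, anillin, the scaffold of the furrow (ANLN, chr7:36429430-36493400), had both the highest level and the smallest p. Its A498 control value was 42.8 CPM and those with guides 4 and 5 were 71.1 and 77.7, a log2 fold change of 0.80 (SE 0.217, adjusted p = 0.749). It was at 243, 273 and 207 CPM in 769-P, at 418, 378 and 391 in 786-O with 485 and 381 for sgKDM5D, and at 118, 155 and 128 in CAKI-2 with 105 and 122. The midbody kinesin KIF20B (0.88), the RhoA activator ECT2 (0.87) and the centralspindlin kinesin KIF23 (0.84) were close to it, and GAS2L3 (0.33) was not past an unadjusted p under 0.05. PIMREG (chr17:6347761-6354789), which was put in no step, was at 9.87 CPM in the A498 control and at 19.8 and 13.8 with the guides, a log2 fold change of 0.76 (SE 0.222, adjusted p = 0.777). It was at 37.9, 37.6 and 35.9 CPM in 769-P, at 91.2, 78.3 and 93 in 786-O with 87.5 and 79.1 for sgKDM5D, and at 24.1, 21.9 and 21.7 in CAKI-2 with 25.1 and 24.8, and it shares exon bases with PITPNM3 on the opposite strand.

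The summed level moved less than the median gene. In A498 the sum of the 54 genes was 1768 CPM in the control, 2276 CPM with guide 4 (1.29-fold) and 1969 CPM with guide 5 (1.11-fold). TUBB4B alone made up 21.2% of the sum in the A498 control, and without it the folds were 1.4 and 1.2. In every A498 library the sum stayed below that of the CAKI-2 control.

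**Figure D2:**
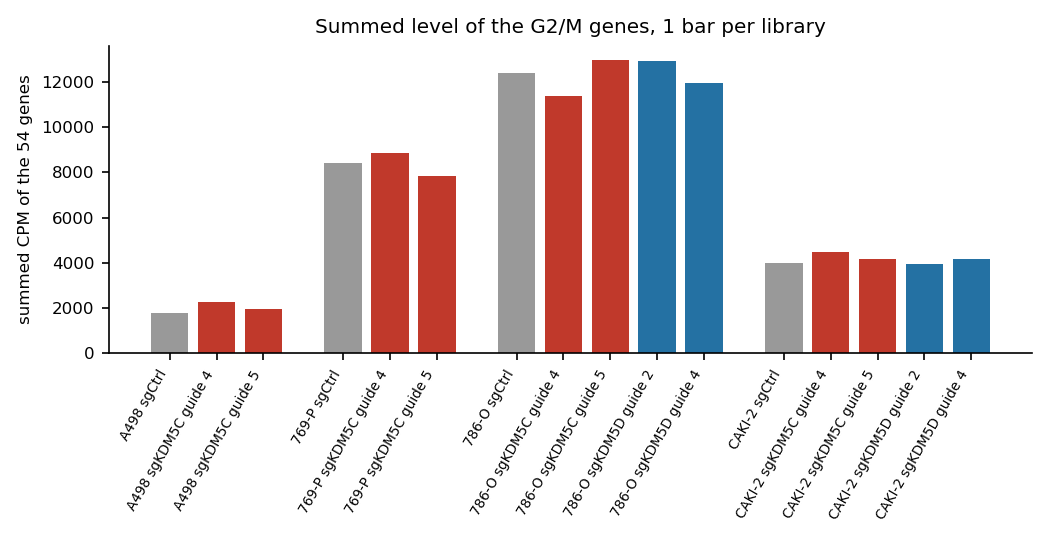
Summed CPM of the 54 G2/M genes in each of the 16 libraries, 1 bar per library, grey for sgCtrl, red for sgKDM5C and blue for sgKDM5D. The A498 bars lie at 1768, 2276 and 1969 CPM, and those of 786-O between 11384 and 12963 CPM.

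Many promoters of the set hold the core letters of the CHR named above, and many hold the letters of a CCAAT box. RefSeq promoter windows (GRCh38.p14, a different build from the GRCh37 gene positions given here) of 250 bases before to 50 bases after the annotated start were at hand for 45 of the 54 genes. They were searched on both strands for TTTGAA, the core of the CHR, and for CCAAT, the box bound by NF-Y. TTTGAA was in 31 of the 45 windows (68.9%) and in 15.4% of all 27305 windows, and CCAAT in 31 (68.9%) and 35.7%. Both were in 25 (55.6%), against 6.08% of all, and at least 2 CCAAT were in 23 (51.1%), against 11.3%. Of the 42 TTTGAA matches, 22 began between 60 bases before and 20 bases after the start, in 19 genes. The 120 bases before the start are printed 5′ to 3′ on the strand of the gene for 1 gene per step, the one with the smallest p in A498 among those that hold TTTGAA in this stretch, so that the spacing of the elements can be seen. Both elements are in capitals wherever they occur on either strand, so that the reverse complements of each are marked as well.
CKS1B: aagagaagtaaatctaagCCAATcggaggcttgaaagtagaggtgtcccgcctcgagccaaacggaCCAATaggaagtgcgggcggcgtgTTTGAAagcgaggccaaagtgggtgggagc
MKI67: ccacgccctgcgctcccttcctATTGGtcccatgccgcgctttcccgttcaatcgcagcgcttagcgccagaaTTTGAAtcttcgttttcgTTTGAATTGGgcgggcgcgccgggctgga
HJURP: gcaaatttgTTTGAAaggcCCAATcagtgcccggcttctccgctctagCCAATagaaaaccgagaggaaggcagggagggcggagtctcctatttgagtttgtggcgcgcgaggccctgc
CDCA8: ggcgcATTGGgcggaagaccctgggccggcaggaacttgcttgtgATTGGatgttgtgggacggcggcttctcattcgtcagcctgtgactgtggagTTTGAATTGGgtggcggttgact
CDC20: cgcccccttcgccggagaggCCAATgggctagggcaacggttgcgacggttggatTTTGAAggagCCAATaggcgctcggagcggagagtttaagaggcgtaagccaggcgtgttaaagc
CKAP2L: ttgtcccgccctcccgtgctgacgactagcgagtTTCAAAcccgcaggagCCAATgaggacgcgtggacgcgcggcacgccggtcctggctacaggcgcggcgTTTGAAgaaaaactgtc
ANLN: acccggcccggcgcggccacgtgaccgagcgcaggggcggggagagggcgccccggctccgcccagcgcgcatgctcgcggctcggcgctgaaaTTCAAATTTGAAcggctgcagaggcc
RANGAP1: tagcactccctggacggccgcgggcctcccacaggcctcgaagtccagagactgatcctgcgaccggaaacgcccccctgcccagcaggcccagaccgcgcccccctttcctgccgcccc
The stretches lie at chr1:154974561-154974680 (plus strand), chr10:128126424-128126543 (minus strand), chr2:233854536-233854655 (minus strand), chr1:37692396-37692515 (plus strand), chr1:43358861-43358980 (plus strand), chr2:112764610-112764729 (minus strand), chr7:36389742-36389861 (plus strand) and chr22:41302370-41302489 (minus strand).

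In CKAP2L, the gene with the largest change in A498, TTTGAA begins 17 bases before the start with its reverse complement further upstream, and in ANLN both orientations stand side by side. In MKI67 and CDCA8 the element runs into a reverse CCAAT, so that the capitals overlap. In CDC20 it begins 65 bases before the start and in HJURP 111, outside the cluster near the start. RANGAP1, shown for contrast as the gene with the largest p in A498 among those without TTTGAA in the window, holds neither element in this stretch. The changes in A498 of the genes with and without TTTGAA overlapped. Of the 31 with it, 21 were higher at an unadjusted p under 0.05 (median log2 fold change 0.73), and of the 14 without it, 9 were (0.59), and this difference was not tested. A match is a description of the letters and shows no binding.

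The 2 guides were compared gene by gene. In A498 both guides lay above the control for 46 of the 54 genes, against 37.9% of all genes tested, both lay below it for RANGAP1 and TUBB4B, and they split for CDCA3, CENPA, UBE2C, TACC3, PSRC1 and JPT1. The median log2 ratio to the control was 0.77 with guide 4 and 0.49 with guide 5, and guide 4 was above guide 5 for 39 genes, against 48.4% of all genes. Since both ratios share the control library, agreement in sign is partly fixed by that library.

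In 769-P the guides fell on opposite sides of the control for 28 genes. Both were above it for 7, against 27.2% of all genes tested, and both were below it for 19. Guide 4 had a median log2 ratio of 0.14 and guide 5 of -0.13, beside 0.00 and -0.00 over all genes tested. Guide 4 stood out for G2E3, at 21.6 CPM against 10.4 in the control and 9.42 with guide 5, and for KIF20B, at 97.6 CPM against 55.1 and 45.4. The kinetochore gene NUF2 gave the same picture, at 115 CPM against 70.5 and 64. These genes were named after their values were seen. In 786-O both guides were above the control for 14 genes, against 23.4% of all, and both were below it for 10. The guides split for 30 genes there, although their medians were close, at -0.01 for guide 4 and 0.02 for guide 5. Guide 4 was low in 786-O for TUBB4B and JPT1 but high for GAS2L3, at 77.4 CPM against 46.8 in the control. In CAKI-2 both were above the control for 39 genes, against 30.6%, with small medians of 0.22 and 0.07. Both were below it for 3 and the guides split for 12. The shares of all genes with both guides below or split are not given here.

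Over the 4 lines, guide 5 was lower than guide 4 at an unadjusted p under 0.05 for 13 of the 54 genes, against 2.94% of all genes tested, and higher for 0. No gene passed the correction over all genes (smallest adjusted p 0.899), and the median log2 difference was -0.13. NDC80 had the smallest p, at -0.51 (SE 0.123), followed by DLGAP5 at -0.48 and HMMR at -0.43. The count was 6 without 769-P, 8 without CAKI-2 and 7 with each library's GC trend removed, where the share of all genes is not given here. The median difference per line was -0.30 in A498, -0.18 in 769-P, 0.06 in 786-O and -0.14 in CAKI-2.

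Outside A498 no G2/M gene passed even an unadjusted p under 0.05 with sgKDM5C. The counts were 0 of 54 in 769-P, where 3.32% of all genes passed in either direction, 0 in 786-O (2.92%) and 0 in CAKI-2 (1.94%). The median log2 fold change was 0.03 in 769-P with a range of -0.37 to 0.58, 0.02 in 786-O with a range of -0.19 to 0.44, and 0.15 in CAKI-2 with a range of -0.35 to 0.42. In CAKI-2, 50 of the 54 changes were above 0, beside 10040 of all 20175 genes tested, and all refer to 1 control library. CKAP2L was the largest at 0.42 and TTK next at 0.39. The median SE of a member was 0.213, 0.212 and 0.215 in these lines, and the smallest adjusted p of a member was 1 in each of them (edgeR, Benjamini-Hochberg). In 769-P the median log2 ratio was 0.14 with guide 4 alone and -0.13 with guide 5 alone.

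**Figure D3:**
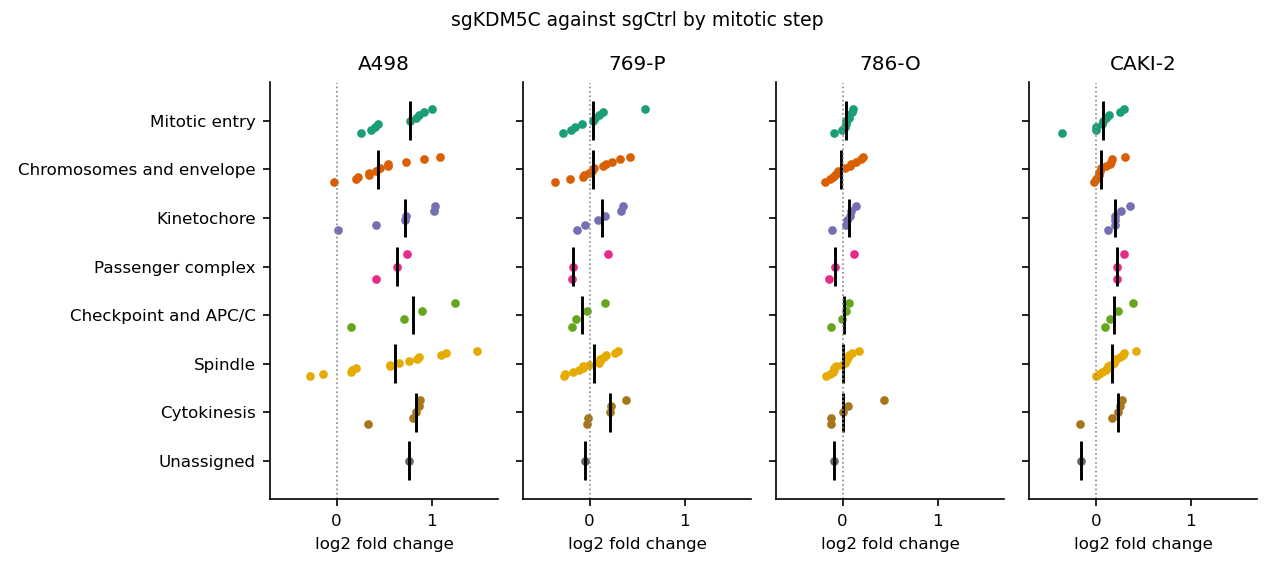
Log2 fold change of sgKDM5C against sgCtrl for each G2/M gene (points), by mitotic step (rows, black bars for the median of the step) in A498, 769-P, 786-O and CAKI-2 (panels). The medians of the steps lie between 0.44 and 0.84 in A498 and between -0.18 and 0.24 in the other lines.

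The difference between A498 and the mean of the other lines was fitted as a contrast. A498 was set apart with its rise in these same libraries known, and its values refer to 1 control library. The counts of this contrast therefore describe the difference and are no independent support for it. It was above 0 at an unadjusted p under 0.05 for 24 of the 54 genes, against 2.17% of all genes tested, and below 0 for 0, with a median of 0.56, and no gene passed the adjusted threshold. CKAP2L (1.28, SE 0.304), MKI67 (1.13, SE 0.274) and AURKA (1.02, SE 0.248) led the list. The count fell without guide 4 of A498. The mean effect over the 4 lines was above 0 at an unadjusted p under 0.05 for 23 genes, against 3.43% of all, with a median of 0.18 and again with no adjusted call. This mean rested on A498: without that line the count was 0. It was 14 without CAKI-2, and it also fell on leaving out guide 4 of CAKI-2, of A498 or of 769-P. The share of all genes in these fits is not given here.

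With sgKDM5D no member passed an unadjusted p under 0.05 in 786-O, where 1.82% of all genes did, or in CAKI-2, where 0.773% did. The medians were 0.07 in 786-O, with a range of -0.22 to 0.34, and -0.01 in CAKI-2, with a range of -0.37 to 0.21. Between sgKDM5C and sgKDM5D over both lines, a comparison that uses no control library, 0 of the 54 passed, against 4.12% of all genes tested. The difference was above 0 for 43 genes, beside 10392 of all 20175 genes tested. Its median over the 54 was 0.06 with a range of -0.18 to 0.26, and the median SE was 0.123.

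Other genes of the pathway were also higher in A498. Of 57 further G2/M genes, chosen from general knowledge, 35 were higher at an unadjusted p under 0.05 and 0 lower, with a median of 0.67. Of all genes tested, 3.54% were higher and 2.01% lower at that threshold. RACGAP1, the GTPase-activating partner of KIF23 in centralspindlin, was at 9.11 CPM in the control and at 17.3 and 17.6 with the guides (log2 0.94, adjusted p = 0.317), and the checkpoint protein BUB1B at 2.55, 6.53 and 6.09 CPM (1.30, adjusted p = 0.38). Of 42 S phase genes of the same package, 15 were higher and 0 lower, with a median of 0.41. Of 19 transcription factors of the cell cycle, 8 were higher and 0 lower, with E2F8 at 0.93 and E2F2 at 1.62 having the smallest p. FOXM1 (0.64) and MYBL2 (0.46), named after their values were seen because they act on the CHR, were among the 8. No gene of these lists passed the adjusted threshold. The lists were chosen with earlier results of these data known. Their genes were read against the same A498 control library as the members of the G2/M list. Their counts therefore describe further genes in the same libraries and are no independent support for the rise in A498.

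The summed level of 18 genes of cell cycle exit, p53 targets among them, was highest in A498, and 2 genes made up most of it there. It was 5547 CPM in the A498 control and 794, 957 and 1437 CPM in the controls of 786-O, 769-P and CAKI-2. CDKN1A, which encodes the CDK inhibitor p21, was at 1183 CPM in the A498 control against 264, 335 and 386 CPM in those lines, and the stress cytokine GDF15 at 3273 CPM against 9.06, 51.2 and 450. Other genes of the list ran the other way between lines, such as the CDK inhibitor genes CDKN2C, at 11.1 CPM in the A498 control and 164 in that of 786-O, CDKN2D, at 6.17 and 25.6, and CDKN1B, at 22.8 and 42.2. These 5 genes were named after their control values were seen. With sgKDM5C in A498, 1 of 17 genes of this list was higher at an unadjusted p under 0.05 (CDKN2C, log2 fold change 0.56) and 0 were lower. Of all genes tested, 3.54% were higher and 2.01% lower. The median of the list was 0.00, and CCNG2 stood at 0.54. CDKN1A was at 896 and 1190 CPM with guides 4 and 5 (-0.18).

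Identity markers did not pass the test in A498. Of 9 renal and ccRCC markers, 0 were higher or lower at an unadjusted p under 0.05, beside 3.54% and 2.01% of all genes tested. KRT8 at -0.41 and CA9 at -0.73 had the smallest p. Of 4 markers of other cell types with enough counts, 0 passed, with GFAP at -0.51 and CD14 at 0.67. CD3E and HBB had 0 counts in all libraries.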

How the data were processed

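Bulk RNA from 4 established ccRCC lines was sequenced in 16 libraries (stranded Illumina libraries, paired-end), and the deposited values are raw read counts per Ensembl gene, whole numbers with no normalization. Per the submitters' processing notes, reads were trimmed with Trimmomatic 0.38 and aligned with STAR 2.5.2b to GRCh37. The counting tool, annotation and use of strand are not given in the sources used here. Since the header has no entry for gene IDs, its 16 library names were matched to the columns one place further right. Of 57773 gene IDs, 55538 were matched to GENCODE symbols on GRCh37. Depth over all gene IDs ran from 23398449 to 41617439 counts.

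The 20175 genes whose counts added up to 60 or more entered the quasi-likelihood F-test of edgeR 4.0.16 (run in R 4.3.3), with TMM normalization and 1 mean per line and genotype (10 groups, 6 residual degrees of freedom). The biological coefficient of variation was 15.2%. Benjamini-Hochberg adjustment covered all 20175 genes, with a threshold of 0.05, and an unadjusted p under 0.05 is named as such. The SE was obtained by dividing the absolute log2 fold change by the square root of F. CPM use TMM-scaled totals, and log2 ratios of single libraries a prior count of 2. Guide 5 was compared with guide 4 with a term for guide. Alternatives were RLE size factors, library totals, DESeq2 1.42.0, filterByExpr, no filter, 12 libraries, each line alone, a guide number block, each guide or line left out and, chosen after seeing the data, removal of each library's GC trend.

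Full values were given for, in each step, the member with the highest mean CPM and the one with the smallest p in A498, and for any member called at an adjusted p (there was none). From each further list the genes called and the 2 with the smallest p in A498 were named. The members and lists were chosen with earlier results of these data known. Some genes of the marker lists are not reported here. Promoter windows of AURKA, HMGB2, ANP32E, CDCA2, BIRC5, TTK, UBE2C, TPX2 and PIMREG were not used here.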

Additional observations from a re-analysis of the deposited data

Results flagged for a closer look

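Some genes lay on opposite sides of the control in 2 lines, with both sgKDM5C libraries above it in A498 and both below it in another line. This held for 14 of the 54 genes in 769-P (CKS1B, CDC25C, AURKA, NCAPD2, CTCF, HJURP, AURKB, CDCA8, CDC20, TPX2, KIF2C, CKAP5, GTSE1 and PIMREG). It held for 9 in 786-O (SMC4, MKI67, LBR, CENPF, CDCA8, KIF2C, GTSE1, ECT2 and ANLN) and for 3 in CAKI-2 (CDC25C, GAS2L3 and PIMREG). The difference from each single line was not tested, and the share of all genes with such signs was not counted. Some values lay close to the control, such as guide 5 of CDCA8 in 786-O at a log2 ratio of -0.01. With sgKDM5C in 769-P, 786-O and CAKI-2, 0 members passed an unadjusted p under 0.05, and each line had 1 control library. In the test of A498 against the mean of the other lines, 9 of the 14, 7 of the 9 and 2 of the 3 genes had an unadjusted p under 0.05, and 0 passed an adjusted p (edgeR quasi-likelihood F-test). Because the genes were picked by their signs in the same libraries, these counts cannot serve as support for a difference. Groups had at most 2 libraries, too few for a test of single outlying samples.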

How the results depend on the processing

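In A498 the count of members higher at an unadjusted p under 0.05 (34) was 33 to 37 in the alternatives that kept both guides and 22 to 33 on leaving out 1 guide, and 0 members were lower in all of them. At an adjusted p, the count of 0 became 3 without a filter (33 of all 40196 genes), 9 with DESeq2 (38 of 20175) and 24 in the fit of A498 alone (348 of 15127). For the 11 members with full values, the direction in A498 held in all alternatives. In 769-P the count of higher members (0) was 1 without a filter and 0 to 11 on leaving out a guide. In 786-O leaving out a guide gave 0 to 1 higher and 0 to 3 lower. In CAKI-2 the count of higher members was 4 in the fit of that line alone, 1 with the GC trend removed and 0 to 1 on leaving out a guide. For the mean effect (23 higher) it was 0 without A498, 14 without CAKI-2 and 9 to 24 on leaving out a guide, where 0 to 2 were lower, and the adjusted count (0) was 2 without a filter and 1 with DESeq2. For A498 against the other lines (24 higher) it was 15 to 34 on leaving out a guide, and the adjusted count was 1 without a filter. For sgKDM5C against sgKDM5D, 1 was higher without a filter and 0 to 2 were lower on leaving out a guide. For guide 5 against guide 4 (13 lower), 6 were lower without 769-P, 8 without CAKI-2 and 7 with the GC trend removed, and 1 was higher without a filter. The share of promoters with TTTGAA (68.9%) was 53.3% in the 250 bases before the start, a shorter window. The cause of the other changes was not tested. A single guide left in a group was assumed to vary like the other groups. The share of all genes at an unadjusted p is not given for the alternatives, so their counts stand without a background.

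Guide numbers recur in all lines, and the labels tie them to no shared culture or day. The guide differences of the lines correlated between -0.223 and 0.291 across genes, so not every pair of lines deviated together. With the guide number as a replicate block, 34 members were higher in A498 and 20 in the mean effect, and no count moved by over 1.5 times. A low level limits A498 most, where TTK had 32 counts in the control.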
